A study of Homo sapiens with 14 samples.

Results

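PANC-1 cells exposed to proanthocyanidins (PA) for 24 h were set against the untreated start of the same experiment. The comparison used 4 of the 14 libraries in the series, the pair after 24 h with PA at 20 µg/ml and the pair collected at 0 h, which the labels give as DMSO for 0 h. Another pair, from cultures kept 24 h with the DMSO vehicle and no PA, was used to tell how far each gene moved without PA. PANC-1 is an established human line from a pancreatic ductal carcinoma, and no genotype or transgene differed between the groups. Each group had 2 libraries (n = 2). The design text calls the repeat biological, but nothing says whether the libraries came from separate cultures. The p-values rest on the scatter within pairs over all 14 libraries of the series, not only those compared here. Against the start alone, PA and 24 h in culture cannot be told apart, and the question was therefore which PA effects went past the starting state and which left a gene at its 0 h level while the vehicle cultures moved.

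Proanthocyanidins are plant polyphenols built from flavan-3-ol units. Several programmes that respond to medium, growth factors and cell stress change in cultured cancer cells over a day. SREBP factors switch on sterol and fatty acid genes when membrane sterol is low, HIF factors switch on glycolysis genes, and ATF4 is made when amino acids or protein folding fail. Dividing cells express E2F-driven replication genes and, later in the cycle, mitotic genes. Immediate early genes such as JUN and chemokine genes driven by NF-kB rise quickly after fresh serum or stress and then decline.

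The 6 libraries held 27000477 to 35213154 reads assigned to genes, and 3 reads corresponded to 0.0852 to 0.111 CPM (read counts scaled to the library's depth). CPM below are scaled by edgeR's TMM factors. CDKN2A, deleted in this line, had 0 or 1 read in every library of the series. In the 6 libraries KRT8, KRT18, KRT19 and VIM were abundant, at 567.2 CPM or more without TMM scaling. SOX9 had a median of 131.3 CPM on that scale. The duct markers KRT7 and MUC1 were lower, with medians of 10.1 and 13.31 CPM, and CA2 had at most 9 reads. Of the fibroblast markers COL1A1 read 13.39 to 19.82 CPM, COL3A1 had at most 15 reads and the others at most 4. Of the endothelium markers KDR had at most 27 reads and the others at most 7. Without TMM scaling, the 9 acinar and islet markers in the count table summed to at most 0.09996 CPM, CD3D, CD3E and MS4A1 had at most 1 read, and PTPRC had at most 2. The sum over 8 leukocyte markers, also without TMM scaling, was nevertheless 40.3 to 48.5 CPM at the start, 36.7 to 42.6 CPM in 24 h vehicle and 69.0 to 70.2 CPM with PA. At most 65.1 CPM of it was CD68 (37.3 and 46.2 CPM at the start and 76.6 and 77.7 CPM with PA once TMM-scaled), a lysosome protein that epithelial cells also make, and the part of other cells in any result was not tested. Base composition moved with the groups. Transcript GC content had a log2 slope of 0.328 and 0.49 per 10 percentage points in the PA libraries, of -0.226 and -0.11 in the 0 h libraries and of -0.266 and -0.217 in the 24 h DMSO libraries. RNAs of the mitochondrial genome took 10 and 8.23% of reads with PA, 5.61 and 6.05% at the start and 5.29 and 4.76% in 24 h vehicle. Values after a correction for GC and length are given beside a gene wherever they moved its log2 change by more than 1.5 times. In bulk RNA, fewer cells of a kind and less RNA per cell cannot be told apart.

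After 24 h with PA, 8081 of 15181 tested genes (53.2%) differed from the start at an adjusted p under 0.05, with 3821 higher (25.2%) and 4260 lower (28.1%). Far fewer genes were called in vehicle over the same time. The 24 h vehicle libraries differed from 0 h in 373 genes (2.46%), 80 higher (0.527%) and 293 lower (1.93%). At an unadjusted p under 0.05 the vehicle count was 2606, and leaving out a single 0 h or 24 h DMSO library brought the 373 down to between 27 and 104. It was higher in other fits, at 774 with DESeq2, 703 without the filter on low counts and 992 when only the 6 libraries were fitted. Against the matched 24 h vehicle, PA called 8296 genes (54.6%), 4127 higher (27.2%) and 4169 lower (27.5%). The median size of the log2 change was 0.678 between PA 24 h and the start and 0.244 between vehicle 24 h and the start. These 3 contrasts share libraries pairwise, so their values are given side by side and are not independent. On log2(RPKM + 1) in place of counts the median gene lay 0.243 lower and 32.4% of calls were higher, against 47.3% in the count fit, so the split between rises and falls depends on the scaling.

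Genes were sorted by the 3 contrasts. A gene went beyond the start if PA 24 h differed from vehicle 24 h and from 0 h in the same direction, and 6685 genes did (44%), 3214 higher and 3471 lower. In 6557 of them the vehicle change was not called, in 93 vehicle moved the same way, and in 35 it moved the opposite way. A gene was held at the start if vehicle moved away, PA differed from vehicle in the opposite direction, and the 95% interval of PA against 0 h lay within 1.5-fold each way. That held class had 57 genes (0.375%), 52 of them higher with PA than with vehicle. A gene was partly held if PA moved with vehicle but less far (19 genes, 0.125%). In a further 127 genes (0.837%) both arms moved the same way and did not differ by the test, which does not show that they were equal. Of the genes that PA called against vehicle, 1535 were not called against the start and were in none of these classes. In 1500 of them the vehicle change was not called either, and in 35 vehicle moved the opposite way but the interval of PA against 0 h reached past the bound. The small classes changed in size when 1 library was left out. Such a fit leaves 1 library in its group and has less power to call a change. Leaving out 1 library at a time left 4 to 33 held genes, 5 to 14 partly held genes and 10 to 135 genes of the shared change. For the held class this came to 5 and 6 genes without the first or second DMSO 0 h library, 4 and 10 without the first or second DMSO 24 h library, and 33 and 25 without the first or second PA library. With the GC and length correction it had 195 genes, 22 of them shared with the 57.

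**Figure D1:**
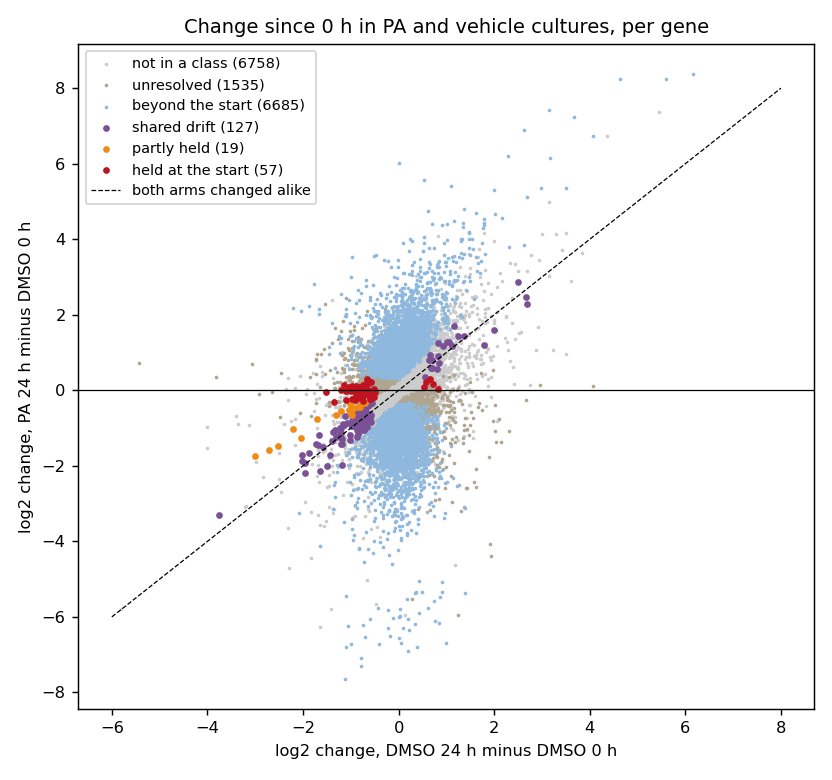
Each point is 1 of 15181 tested genes, with the log2 change of the vehicle cultures over 24 h on the x axis and the log2 change of PA cultures over the same time on the y axis. The 6685 genes beyond the start spread up and down near a vehicle change of 0, the 57 held genes lie along a PA change of 0 with the vehicle changed, and the 127 genes of the shared change lie near the dashed line of equal change. The classes were chosen from these changes, so the places of the held and shared genes follow from the rule.

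Among genes with a mean of at least 2 CPM, the 8 with the largest rises since the start included ALDOC, ACSS2 and TUBA1A. ALDOC, a brain-type aldolase of glycolysis (chromosome 17, 28573115 to 28577264, minus strand), read 5.77 and 6.52 CPM at 0 h, 17.1 and 9.10 CPM in 24 h vehicle and 248 and 274 CPM with PA. Both PA libraries lay far above all 4 DMSO libraries, and the log2 change since the start was 5.41 ± 0.37 (SE, adjusted p = 3.95e-07). The acetate-activating enzyme gene ACSS2, a source of acetyl-CoA, read 27.1 and 31.6 CPM at 0 h, 54.4 and 35.7 in vehicle and 701 and 881 with PA (log2 change 4.75 ± 0.26 (SE, adjusted p = 1.77e-07)). TUBA1A, an alpha tubulin with close paralogs whose reads could be shared, went from 75.6 and 78.1 to 1768 and 1643 CPM (205 and 140.0 in vehicle). TSC22D3, the glucocorticoid-induced leucine zipper gene, went from 7.16 and 9.94 to 121 and 157 CPM, with vehicle at 9.86 and 10.3. HDAC5, a class IIa histone deacetylase, rose by 3.94 ± 0.26 (SE) and stood at 79.1 and 84.3 CPM against 4.80 and 5.78. The tubulin gene TUBB2B (3.58 ± 0.39 (SE)) and TPPP3, a tubulin polymerisation protein gene (3.56 ± 0.41 (SE)), rose from low levels (0.967 and 1.19 and 0.430 and 0.850 CPM at the start), as did the uroplakin gene UPK1A (4.07 ± 0.29 (SE)). In all of these genes both PA libraries were above every DMSO library.

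The PA libraries disagreed in 3 of the largest rises. DPYSL5, a collapsin response mediator gene, read 178 and 37.1 CPM in them against 5.12 and 6.54 at 0 h, and its log2 change of 4.20 ± 0.69 (SE) was 2.66 without PA 24 h replicate 1. PRRG2 (78.5 and 14.4 CPM with PA) and GPR21 (23.8 and 4.04 CPM) showed the same order of the PA libraries, with log2 changes of 4.43 and 4.02 that became 2.74 and 2.23 without that library. The 8 largest falls, by contrast, were mostly of genes that act in mitosis, given below. EDRF1 was the exception among them, at 5.73 and 4.11 CPM at 0 h and 0.494 and 0.209 CPM with PA (-3.79 ± 0.39 (SE)). Beyond these named genes, 50 tested genes had a log2 change under -5, 48 of them with no read in either PA library and none above a mean of 0.953 CPM at the start.

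Sterol synthesis rose as a block and went past the start. Of 21 genes tested, 20 were higher with PA than at 0 h and none lower, with a median log2 change of 1.59 against -0.0505 over all genes. Vehicle raised 1 of them by the test and had a median of 0.355, and 19 of the 21 went beyond the start. FDPS, which makes farnesyl diphosphate, read 128 and 146 CPM at 0 h, 220.3 and 181 CPM in vehicle and 1068 and 1301 CPM with PA (log2 change 3.11 ± 0.20 (SE, adjusted p = 2.95e-07)). The PA pair was above both other pairs, while vehicle lay a little above the start. MVD, the mevalonate decarboxylase gene, went from 31.5 and 42.6 to 334 and 403 CPM (49.2 and 40.4 in vehicle), a change of 3.31 ± 0.22 (SE). EBP, a late isomerase of the pathway, went from 97.1 and 98.9 to 902 and 839 CPM (147 and 122 in vehicle), and the thiolase gene ACAT2 from 176 and 210.4 to 1181 and 1252 CPM (347 and 267 in vehicle). TM7SF2, a sterol reductase gene, had the highest change of the list, 3.68 ± 0.24 (SE), while its vehicle change was 0.22 ± 0.23 (SE). IDI1, an isomerase early in the pathway, was the 1 member not called. It read 0.322 and 0.227 CPM at 0 h, 0.553 and 0.447 in vehicle and 0.599 and 0.558 with PA, a level of few reads. Its change was 1.08 ± 0.49 (SE, adjusted p = 0.0765), and it was called with the correction (1.60, adjusted p = 0.0184).

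The control arm of the pathway and fatty acid synthesis followed. Among 12 genes of sterol control and uptake 8 were higher and none lower (median 0.977). INSIG1, an SREBP target that retains SCAP in the endoplasmic reticulum, read 103 and 97.0 CPM at 0 h, 253 and 205 in vehicle and 525 and 547 with PA. Its vehicle change of 1.2 ± 0.18 (SE) was called (adjusted p = 0.00323), and PA added about as much again over vehicle, 1.23 ± 0.18 (SE). SREBF1 rose by 1.91 ± 0.22 (SE) (1.26 with the GC and length correction) and SREBF2 by 1.08 ± 0.16 (SE). INSIG2 (1.66 ± 0.19 (SE)) and LIPA, the lysosomal lipase (1.46 ± 0.16 (SE)), rose as well. Of 16 fatty acid synthesis genes 9 were higher (14 corrected) and none lower (median 1.07, 0.709 without PA 24 h replicate 2). SCD, the stearoyl-CoA desaturase (chromosome 10, 100347124 to 100364834, plus strand), read 794 and 818 CPM at 0 h, 1444 and 1055 in vehicle and 7936 and 9030.3 with PA, a log2 change of 3.40 ± 0.21 (SE, adjusted p = 2.95e-07). The vehicle libraries lay above the start and far below PA, and the vehicle change of 0.63 ± 0.20 (SE) was not called. FADS2 (3.05 ± 0.19 (SE)), ACLY (2.28 ± 0.14 (SE)) and FASN (2.18 ± 0.22 (SE)) rose, whereas the acyl-CoA synthetase gene ACSL3 (-0.027) and the elongase gene ELOVL6 (0.15) were not called. With the correction both were higher (0.81 and 0.81, adjusted p = 3.24e-05 and 0.00022).

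**Figure D2:**
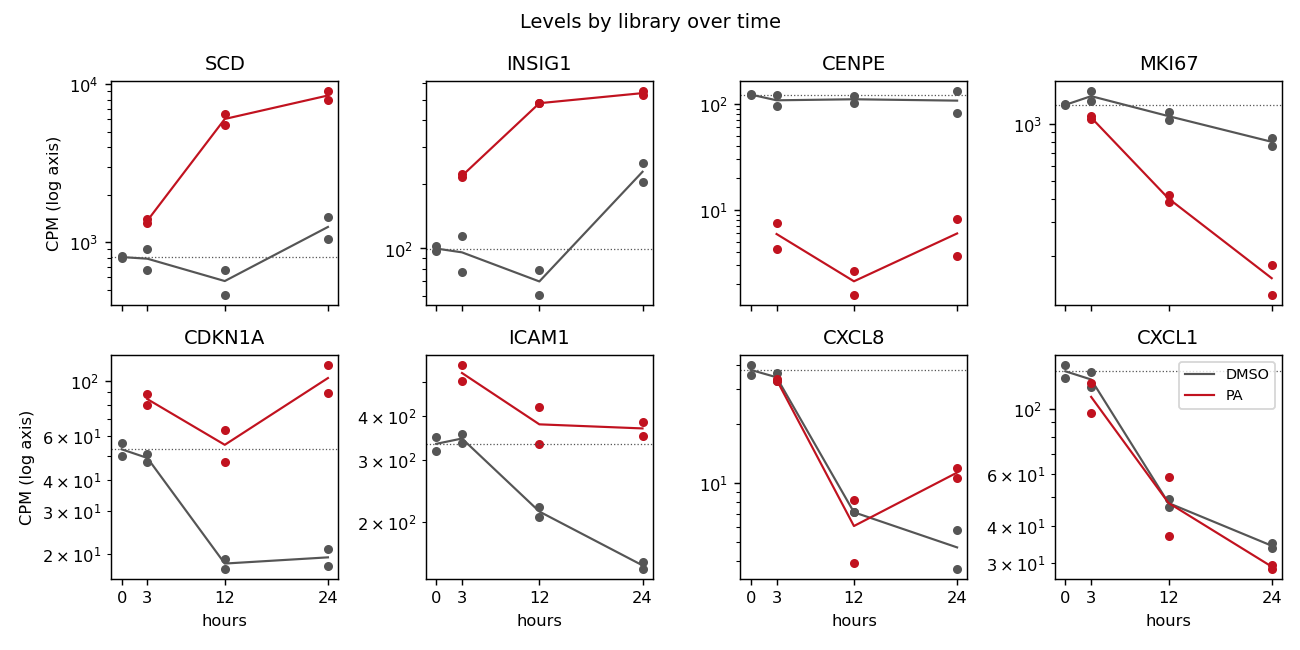
CPM on a log axis against hours for SCD, INSIG1, CENPE, MKI67, CDKN1A, ICAM1, CXCL8 and CXCL1, with points for libraries, lines through the means of each arm and a dotted line at the DMSO 0 h mean. With PA, SCD ends above the dotted line and CENPE below it while vehicle stays closer to it, CDKN1A ends above it against a vehicle fall, ICAM1 ends just above it, CXCL8 ends between it and vehicle, and CXCL1 ends with vehicle.

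All 22 glycolysis genes tested were higher with PA than at the start, with a median log2 change of 1.69, and 21 went beyond it. In vehicle 1 gene, PFKFB3, fell by the test and the median was 0.149. PGK1, an enzyme that yields ATP in glycolysis, read 466 and 503 CPM at 0 h, 629.8 and 589 in vehicle and 2313 and 2854 with PA (2.41 ± 0.15 (SE, adjusted p = 2.95e-07)). Both PA libraries were above all DMSO libraries. GAPDH, a gene often used as a constant reference and one with many processed copies, read 2074 and 2302 CPM at 0 h, 2459 and 2467 in vehicle and 6679 and 7597 with PA, a change of 1.71 ± 0.16 (SE) (1.04 corrected). ENO2 (2.62 ± 0.19 (SE)) and PFKL (2.09 ± 0.17 (SE), 1.33 corrected) rose. HK2, a hexokinase gene, and PFKM, a phosphofructokinase gene, were at the low end of the list at 0.76 ± 0.12 (SE) and 0.83 ± 0.16 (SE). Among 15 hypoxia response genes outside glycolysis 13 were higher and none lower (median 1.43). BNIP3, a mitophagy receptor gene, read 231 and 254 CPM at 0 h, 418 and 364 in vehicle and 1156 and 1199 with PA (2.28 ± 0.14 (SE, adjusted p = 2.95e-07)). Vehicle had moved part of the way. NDRG1 rose by 2.70 ± 0.15 (SE), DDIT4, an inhibitor of mTORC1 signalling, by 2.63 ± 0.18 (SE), and P4HA2, a collagen prolyl hydroxylase gene, by 2.06 ± 0.15 (SE). CA9, a carbonic anhydrase gene, rose from at most 0.0716 CPM at 0 h to 3.45 and 5.09 CPM, and with no read in a 0 h library its fold has no firm size. The members not called were ERO1L (0.55 ± 0.22 (SE)) and VEGFA. PA left VEGFA at 125 and 139 CPM against 101 and 113 at the start while vehicle fell to 65.0 and 70.6, and it was in the held class, but in only 1 of 6 fits that left out a library. It was called as a rise since the start with DESeq2 (0.34, adjusted p = 0.0212) and with the correction (0.26).

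Promoter stretches of 3 of these genes that hold the core of the HIF-binding element are shown to give these letters in their sequence context. They are from RefSeq windows of GRCh38.p14 that run from 250 bases before to 50 bases after each gene's start. Capitals mark ACGTG on either strand (CACGT when it lies on the other strand). ALDOC spans 28576896 to 28576985 on chromosome 17, PGK1 spans 78104022 to 78104111 on the X chromosome and BNIP3 spans 131982010 to 131982099 on chromosome 10.
ALDOC: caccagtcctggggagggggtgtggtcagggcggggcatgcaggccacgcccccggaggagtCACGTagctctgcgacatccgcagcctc
PGK1: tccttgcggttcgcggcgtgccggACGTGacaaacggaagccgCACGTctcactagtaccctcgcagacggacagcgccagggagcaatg
BNIP3: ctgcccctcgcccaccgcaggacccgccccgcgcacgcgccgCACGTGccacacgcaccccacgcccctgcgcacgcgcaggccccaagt
ACGTG was in the window of 8 of 12 matched hypoxia genes (66.7%) and 8 of 21 matched glycolysis genes (38.1%). It was in 21.6% of all 27305 promoter windows and in 26.6% of the matched windows of tested genes. The share varied among other lists, such as 57.1% for clock genes, 50% for endoplasmic reticulum chaperones and 7.69% for NF-kB and inflammation. For the sterol and fatty acid lists the SREBP-linked SRE letters TCACNCCAC were searched in the same windows. They were in 0 of 14 matched fatty acid synthesis genes and in 1 of 11 matched genes of sterol control and uptake, SREBF2. Their share of all windows was 1.15%. Sterol synthesis, with 16 of 21 members matched, was not read for motifs. A match is a description of letters, not a binding site.

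ATF4-linked stress genes also exceeded the start, and some of them did so against a vehicle fall. Of 15 tested 13 were higher and none lower (median 1.28, vehicle median 0.0336), and vehicle lowered 3. ATF3, a stress-induced factor of the ATF family (chromosome 1, 212565334 to 212620777, plus strand), read 6.52 and 7.76 CPM at 0 h, 3.20 and 3.99 in vehicle and 50.5 and 63.2 with PA. The vehicle pair lay below the start and the PA pair far above it, with log2 changes of -0.99 ± 0.21 (SE) and 2.99 ± 0.20 (SE, adjusted p = 3.95e-07). DDIT3, which encodes CHOP, went from 36.6 and 38.0 to 246 and 183 CPM with vehicle at 36.2 and 40.2. TRIB3 rose by 2.38 ± 0.22 (SE), and PPP1R15A, the gene of GADD34, by 1.04 ± 0.20 (SE) (0.43 corrected). ATF4 itself read 439 and 468 CPM at 0 h, 247 and 280.0 in vehicle and 611 and 582 with PA. Its change since the start of 0.39 ± 0.15 (SE, adjusted p = 0.0371) was lost with the GC and length correction (-0.13, adjusted p = 0.364) and without either 0 h library (0.36 and 0.44) or either PA library (0.36 and 0.43), at adjusted p of 0.0841 to 0.145. An ATF4-binding CARE motif, searched as TGATGNAA on both strands, was in 3 of 14 matched windows of this list (21.4%) against 3.67% of all windows. The stretch of the ATF3 window that holds it, at 212565175 to 212565264 on chromosome 1 of GRCh38.p14 from RefSeq, is shown with the match in capitals.
ATF3: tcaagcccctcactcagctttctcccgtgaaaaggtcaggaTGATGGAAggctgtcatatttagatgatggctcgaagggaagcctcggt

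The 35 genes that went past the start while vehicle moved the opposite way comprised 30 with a rise and 5 with a fall. CDKN1A, the p21 inhibitor of cyclin-dependent kinases (chromosome 6, 36676460 to 36687339, plus strand), read 49.6 and 56.4 CPM at 0 h, 17.9 and 20.9 in vehicle and 89.7 and 116 with PA. The 3 pairs did not overlap, with vehicle lowest and PA highest. Its change against vehicle was 2.40 ± 0.18 (SE) and its change since the start 0.95 ± 0.17 (SE, adjusted p = 0.000479) (0.36 corrected), so the larger share of its difference from vehicle was the vehicle fall of -1.45 ± 0.18 (SE). GDF15, a secreted stress cytokine, read 207 and 221 CPM at 0 h, 78.7 and 84.9 in vehicle and 851 and 610.3 with PA (1.77 ± 0.32 (SE) since the start, 0.91 corrected). HMOX1, the haem oxygenase gene, went from 14.9 and 17.7 to 41.4 and 47.0 CPM against a vehicle level of 7.10 and 9.07 (1.44 ± 0.24 (SE), 0.81 corrected). ANGPTL4, a lipase inhibitor gene, rose by 1.26 ± 0.17 (SE) (0.39 corrected) after a vehicle change of -1.22 ± 0.17 (SE). The thioredoxin reductase gene TXNRD1 rose by 0.69 ± 0.11 (SE) (1.04 corrected) and the mitochondrial superoxide dismutase gene SOD2 by 0.50 ± 0.12 (SE) (1.17 corrected). The urea cycle gene ASS1 (1.28 ± 0.19 (SE), 0.71 corrected) and the acute-phase serpin gene SERPINA3 (0.81 ± 0.19 (SE)) were also among the 30. CTSD, a lysosomal protease gene, rose by 0.92 ± 0.19 (SE), a call lost with the correction (0.055, adjusted p = 0.679). The 5 falls were PRIM1 (-1.56 ± 0.18 (SE)), PCNA (-0.69 ± 0.18 (SE)), MCM6 (-0.74 ± 0.14 (SE), -0.31 corrected), the kinetochore gene DSN1 (-0.61 ± 0.13 (SE)) and ANKRD36C (-0.92 ± 0.22 (SE)), the last lost with the correction (-0.21, adjusted p = 0.439). Apart from CDKN1A, GDF15, HMOX1, ATF3 and PRIM1, the genes of this group were named after their values were seen.

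Redox and p53-linked lists were mixed. Of 15 NRF2 target genes 9 were higher and 2 lower than at the start (median 0.869, vehicle -0.438). With the correction the median was 0.331, and 1 gene was lower there and without either 0 h library or PA 24 h replicate 1. PGD (1.57 ± 0.14 (SE)) and TKT (1.62 ± 0.20 (SE)), enzymes of the pentose phosphate pathway, rose while vehicle stayed near the start. NQO1, a quinone reductase gene, rose by 0.96 ± 0.12 (SE). GCLM, a subunit of the enzyme that starts glutathione synthesis, fell by 1.12 ± 0.21 (SE), a call lost with the correction (-0.27, adjusted p = 0.0533). GCLC (-0.18) and SLC7A11 (0.062, 1.07 and called when corrected) were not called, and SRXN1 moved with vehicle (-0.37 ± 0.14 (SE), -0.65 corrected), a call lost without either 0 h library (-0.39 and -0.35) or PA 24 h replicate 1 (-0.23, adjusted p = 0.273). Of 17 p53 targets and CDK inhibitors 6 were higher and 4 lower (median 0.421), against 25.2% and 28.1% of all tested genes. The lower ones were 2 without DMSO 0 h replicate 1 or PA 24 h replicate 2, the median was 0.267 without DMSO 0 h replicate 2 and 0.108 without PA 24 h replicate 1, and 10 were higher with the correction. BBC3, a pro-apoptotic BH3-only gene, went from 3.37 and 3.60 to 19.4 and 17.4 CPM with vehicle at 4.06 and 3.86 (2.40 ± 0.22 (SE), 1.36 corrected). CDKN1C (1.90 ± 0.25 (SE), 1.01 corrected) and CDKN2D (1.52 ± 0.22 (SE), 0.71 corrected) rose. MDM2 fell by 1.08 ± 0.22 (SE) (-0.42 corrected) and the death receptor gene FAS by 2.31 ± 0.52 (SE). PANC-1 carries a mutant p53, and p53 protein was not measured.

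Every one of the 22 genes tested of G2 and mitosis was below the start, with a median log2 change of -2.15 against -0.0505 over all genes, and all 22 went beyond it. Vehicle lowered 1 of them, MKI67, and had a median of -0.14. CENPE, a kinesin that moves chromosomes to the spindle equator (chromosome 4, 103105806 to 103198409, minus strand), read 122 and 122 CPM at 0 h, 82.6 and 131 in vehicle and 8.25 and 3.70 with PA. Both PA libraries were far below all DMSO libraries, and the change since the start was -4.35 ± 0.38 (SE, adjusted p = 2.15e-06). MKI67, the Ki-67 proliferation marker (chromosome 10, 128096659 to 128126385, minus strand), read 1251 and 1266 CPM at 0 h, 760.3 and 843 in vehicle and 179 and 124 with PA. The vehicle pair lay between the others, with a vehicle change of -0.65 ± 0.15 (SE) that was called (adjusted p = 0.0415) and a PA change of -3.05 ± 0.17 (SE, adjusted p = 1.77e-07). TOP2A, the topoisomerase of replicated chromatids, fell by 3.53 ± 0.40 (SE) from 888 and 826 to 92.5 and 56.2 CPM, and ASPM, a spindle pole gene, by 3.91 ± 0.53 (SE) from 179 and 143 to 15.7 and 5.65 CPM. TPX2 (-1.90), AURKA (-2.08) and KIF20A (-1.94) fell less far. AURKB was at the low end with -0.43 ± 0.14 (SE) (-0.93 corrected), and lost its call without DMSO 0 h replicate 2 (-0.35, adjusted p = 0.138) or PA 24 h replicate 1 (-0.34, adjusted p = 0.142). Outside that list, SGOL2, a protector of centromere cohesion, fell by 4.22 ± 0.46 (SE), the kinesin genes KIF15 by 3.84 ± 0.42 (SE) and KIF18A by 3.71 ± 0.45 (SE), the kinetochore gene NUF2 by 3.65 ± 0.35 (SE) and the GTPase-activating protein gene ARHGAP11A by 3.73 ± 0.39 (SE). In CENPE, ASPM and these 5 genes the second PA library was the lower one.

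DNA replication, repair and G1 genes were below the start as well. Of 22 replication genes 17 were lower and none higher (median -0.942), whereas vehicle raised 3 of them and had a median of 0.269. PCNA, the sliding clamp of DNA polymerases, read 163 and 158 CPM at 0 h, 288 and 283 in vehicle and 92.7 and 106 with PA. The vehicle pair lay above the start and the PA pair below it, so the difference from vehicle (-1.52 ± 0.18 (SE)) was larger than the change since the start (-0.69 ± 0.18 (SE, adjusted p = 0.00514)). PRIM1, the DNA primase gene, showed the same order at 33.9 and 32.9, 55.7 and 55.9 and 11.9 and 10.7 CPM. MCM10 (-2.23 ± 0.19 (SE)), MCM4 (-1.2 ± 0.12 (SE)) and ORC6 (-1.48 ± 0.17 (SE)), which act at origins, fell, while MCM2 (0.32), MCM5 (-0.0082), MCM7 (-0.21) and CDT1 (0.29) were not called against the start, although MCM5 (-0.34), MCM7 (-0.67) and CDT1 (-0.46) were lower with the correction. TYMS, the thymidylate synthase gene, fell by 0.61 ± 0.12 (SE). All 19 DNA repair genes tested were lower (median -1.74, vehicle 0.255). BRCA1 read 46.9 and 40.3 CPM at 0 h, 53.2 and 59.2 in vehicle and 11.0 and 5.51 with PA (-2.40 ± 0.32 (SE)), and its pairs did not overlap. FANCD2 (-2.02), EXO1 (-1.88) and FANCI (-1.43) fell, and BRCA2 fell by 2.57 ± 0.54 (SE) (-1.65 corrected). Among 16 G1 cyclin and E2F genes 10 were lower and 1 higher (median -0.986). CDK6 (-2.70 ± 0.35 (SE)), RBL1, the p107 gene (-2.30 ± 0.28 (SE)), CDC25A (-1.39 ± 0.18 (SE)) and E2F7 (-1.22 ± 0.14 (SE), -0.69 corrected) fell. CDK4 was the 1 higher gene (0.68 ± 0.20 (SE), 0.34 corrected), a call lost without DMSO 0 h replicate 1 (0.56, adjusted p = 0.0869) or PA 24 h replicate 2 (0.47, adjusted p = 0.117). MYC (-0.22) and E2F1 (0.22) were not called, although both were lower with the correction (-0.56 and -0.55, adjusted p = 0.00192 and 0.00205). Of 10 replication histone genes tested 4 were higher and none lower, HIST1H1C (1.49 ± 0.14 (SE), 0.88 corrected), HIST1H2BD (0.93 ± 0.18 (SE)), HIST1H2AC (0.75 ± 0.17 (SE)) and HIST1H2BK (0.86 ± 0.22 (SE)), the last lost with the correction (0.077, adjusted p = 0.804). These are members of a family of near-identical genes, so reads may be shared.

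Promoter windows of 6 of these genes are shown for the cell cycle letters they hold, again from RefSeq on GRCh38.p14. In CCNB2, PLK1, KIF11 and MKI67 capitals mark the CHR letters TTTGAA on either strand (TTCAAA on the other strand). In PCNA and TYMS they mark the E2F letters TTTCCCGC, read on the other strand as GCGGGAAA. CCNB2 spans 59105056 to 59105145 on chromosome 15, PLK1 spans 23678799 to 23678888 on chromosome 16, KIF11 spans 92593040 to 92593129 on chromosome 10 and MKI67 spans 128126424 to 128126513 on chromosome 10. PCNA spans 5126633 to 5126722 on chromosome 20 and TYMS spans 657563 to 657652 on chromosome 18.
CCNB2: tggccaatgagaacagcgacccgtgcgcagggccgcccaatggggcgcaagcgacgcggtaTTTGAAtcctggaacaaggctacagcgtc
PLK1: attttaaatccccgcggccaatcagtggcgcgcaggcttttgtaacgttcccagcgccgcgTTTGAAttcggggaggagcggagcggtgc
KIF11: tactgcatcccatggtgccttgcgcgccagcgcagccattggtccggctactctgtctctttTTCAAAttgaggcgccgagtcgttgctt
MKI67: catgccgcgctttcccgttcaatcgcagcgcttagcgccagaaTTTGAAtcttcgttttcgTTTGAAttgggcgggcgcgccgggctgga
PCNA: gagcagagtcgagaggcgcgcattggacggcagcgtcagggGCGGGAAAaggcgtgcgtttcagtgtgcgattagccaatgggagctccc
TYMS: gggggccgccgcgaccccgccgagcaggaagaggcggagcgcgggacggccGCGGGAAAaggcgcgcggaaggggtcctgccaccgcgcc
The CHR letters lay 28 or 29 bases before the annotated start in the first 4, and MKI67 held them at 2 places. They were in 13 of 18 matched mitotic genes (72.2%), in 15.4% of all windows and in 9.49% of the windows of tested genes. CCAAT, which on the other strand shares a base with the second CHR match of MKI67, was in 16 of those 18 windows (88.9%) and in 35.7% of all windows. TTTCCCGC or its variant TTTGGCGC was in 12 of 20 matched replication genes (60%) and in 2.31% of all windows. The 4 genes with CHR letters fell by between 1.49 (PLK1) and 3.12 (KIF11) on the log2 scale, with CCNB2 at -1.5 and MKI67 at -3.05, so genes with the same letters at about the same place fell by different amounts.

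**Figure D3:**
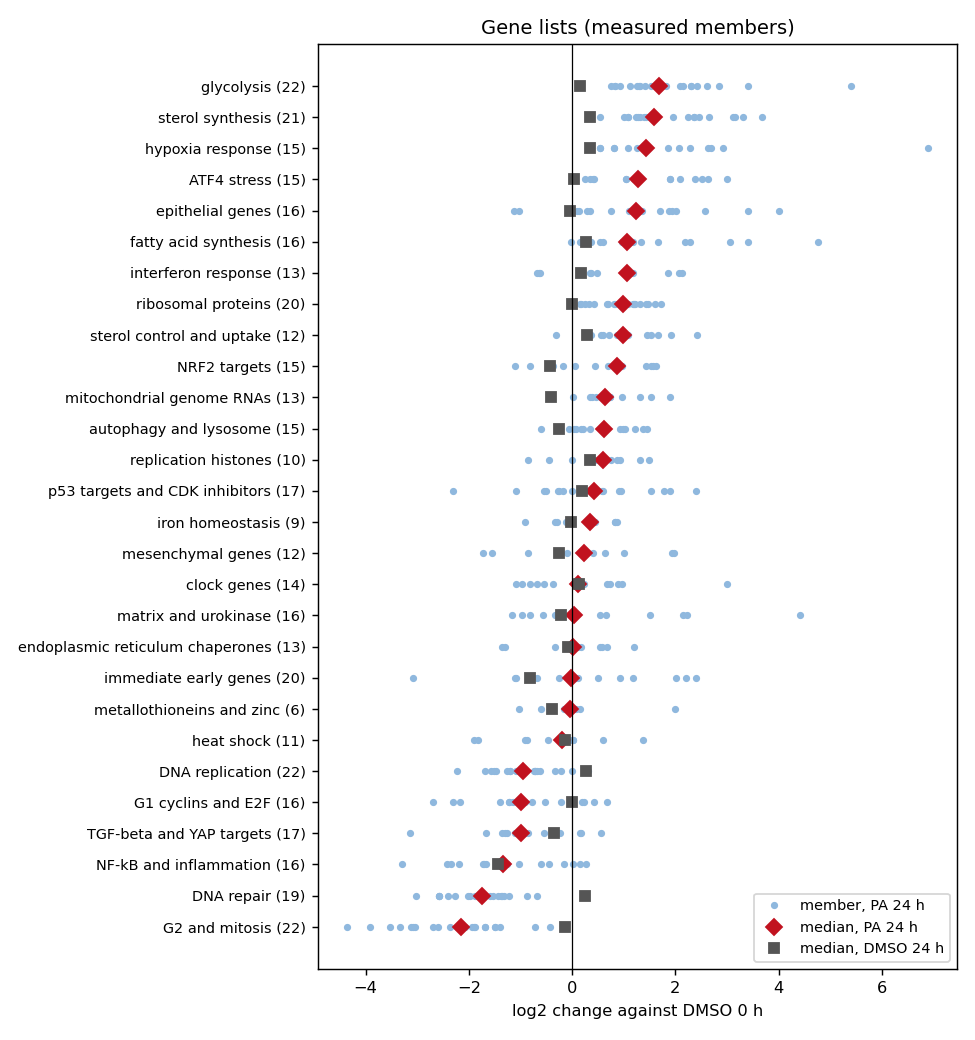
Log2 change of PA 24 h against DMSO 0 h for each tested member of 28 gene lists (blue points), with the list median (red diamond) and the median change of DMSO 24 h against DMSO 0 h (grey square). The glycolysis, sterol, fatty acid, hypoxia and ATF4 medians run from 0.977 (sterol control) to 1.69 (glycolysis) with vehicle medians of at most 0.355, mitosis (-2.15), repair (-1.74) and replication (-0.942) lie below vehicle, and in the NF-kB list the red diamond (-1.34) and grey square (-1.43) nearly meet.

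The 57 held genes were mostly genes that vehicle lowered. Their 52 members that were higher with PA than with vehicle had a median change of 0.77 against vehicle, -0.76 in vehicle since the start, and -0.031 with PA since the start. ICAM1, an adhesion receptor for leukocytes (chromosome 19, 10270835 to 10286615, plus strand), read 318 and 349 CPM at 0 h, 147 and 154 in vehicle and 351 and 385 with PA. The PA pair lay just above the 0 h pair and the vehicle pair far below both. Its change since the start was 0.15 ± 0.13 (SE) with a 95% interval of -0.14 to 0.43, and its change against vehicle was 1.29 ± 0.14 (SE, adjusted p = 1.19e-05). PLAUR, the urokinase receptor gene, read 14.3 and 15 CPM at 0 h, 6.15 and 6.51 in vehicle and 13.4 and 15.9 with PA, an interval of -0.36 to 0.37 against the start. With the GC and length correction both genes fell below the start (ICAM1 -0.24, PLAUR -0.49) and counted as partly held. CDC42EP1 (-0.35 to 0.57) and PTP4A2 (-0.52 to 0.50) were in the class in none of 6 fits that left out a library. The survival genes MCL1 (0.026 ± 0.12 (SE)) and BCL2L1 (0.15 ± 0.15 (SE)) were held too, each in 2 of 6 such fits. With the correction BCL2L1 went to -0.34, LIF to -0.30 and CDC42EP1 to -0.82, while MCL1 went to 0.33, all called. The 5 held genes that vehicle raised were TYMSOS, PARP9, DUT, H3F3A and COQ2. PARP9 read 26.8 and 27.2 CPM at 0 h, 45.4 and 44.1 in vehicle and 30.6 and 30.5 with PA (since the start 0.18, 0.70 and called when corrected), and DUT, which removes dUTP, read 144 and 127, 199.9 and 190.2 and 142 and 146 CPM. TYMSOS lies opposite TYMS, so its reads cannot be told from those of its neighbour where the counting ignored strand, and H3F3A shares sequence with processed copies.

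Immediate early genes were spread over all the classes. Of 20 tested, vehicle lowered 9 and raised none, while PA against the start gave 6 higher, 4 lower (8 corrected) and 10 not called. Among all tested genes, 25.2% were higher with PA than at the start and 28.1% lower. Of these 20, 7 went beyond the start, 6 were held and 1 was partly held. JUN read 256 and 261 CPM at 0 h, 125 and 146 in vehicle and 263 and 253 with PA, with an interval of -0.32 to 0.31 against the start. The PA pair spanned the 0 h pair, and both vehicle libraries lay far below. FOSL2 (30.1 and 29.9, 14.4 and 14.8 and 29.5 and 33.7 CPM in the same order), KLF4 (29.3 and 27.7, 13.1 and 15.3 and 26.9 and 28.9 CPM) and SPRY2, an inhibitor of receptor kinase signalling (19.0 and 15.9, 8.79 and 9.90 and 17.7 and 20.2 CPM), showed the same order, and KLF6 and IER3 were held as well. With the correction JUN (-0.34) and KLF4 (-0.37) fell below the start. JUN and KLF4 were in the class in 5 of 6 fits without a library, SPRY2 and KLF6 in 2, FOSL2 and IER3 in 1. Another group within the same list rose past the start. JUND read 73.4 and 85.0 CPM at 0 h, 74.6 and 69.0 in vehicle and 353 and 378 with PA (2.21 ± 0.23 (SE), 1.17 corrected), KLF2 rose by 2.39 ± 0.33 (SE) (1.49 corrected) and the phosphatase gene DUSP5 by 1.17 ± 0.18 (SE) (0.73 corrected). JUNB rose by 0.92 ± 0.16 (SE), a call lost with the correction (0.0055, adjusted p = 0.968). KLF10, an early TGF-beta gene, fell below both vehicle and the start (-1.09 ± 0.15 (SE)). FOSL1 fell in both arms (-1.10 ± 0.19 (SE) with PA, -1.83 corrected, -1.36 ± 0.19 (SE) in vehicle). EGR1, at 2.83 and 5.18 CPM at 0 h and 1.80 and 3.21 CPM with PA, was too variable to place. The median of the list since the start was -0.0185 and took either sign depending on the scaling.

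Most NF-kB and inflammation genes fell with vehicle, and PA kept few of them at the start. Of 16 tested, vehicle lowered 11 and PA against the start lowered 10 and raised none, with medians of -1.43 and -1.34. Against 24 h vehicle 8 were higher and 2 lower with PA (median 0.584). Among all tested genes 27.2% were higher and 27.5% lower in that contrast. Vehicle lowered 1.93% of all tested genes, and PA against the start lowered 28.1%. Of these 16, 3 were held (ICAM1, RELB and LIF), 3 were partly held, 3 moved alike in both arms and 2 went below both. In the 6 fits that left out a library 0 to 2 were held, none of them without DMSO 0 h replicate 2. CXCL8, the interleukin-8 chemokine gene (chromosome 4, 73740506 to 73743716, plus strand), read 39.8 and 35.6 CPM at 0 h, 5.75 and 3.67 in vehicle and 10.6 and 12.0 with PA. The 3 pairs did not overlap. Its change since the start was -1.74 ± 0.26 (SE, adjusted p = 0.000115) (-1.03 corrected), against -3.00 ± 0.28 (SE) in vehicle, so at matched time it was higher with PA (1.26 ± 0.27 (SE)) and yet well below where it began. CXCL2 (6.63 and 7.22, 1.66 and 1.72 and 2.36 and 3.45 CPM) and NFKBIA, the inhibitor of NF-kB (187 and 208, 109 and 112 and 144 and 145 CPM), were partly held as well. NFKBIA fell by 0.45 ± 0.12 (SE) since the start (-0.79 corrected), a call that was lost without DMSO 0 h replicate 2 (-0.38, adjusted p = 0.0591). CXCL1 read 140.4 and 127 CPM at 0 h, 35 and 33.6 in vehicle and 29.6 and 28.7 with PA. Both 24 h pairs were far below the start, with changes of -1.96 ± 0.19 (SE) and -2.20 ± 0.19 (SE, adjusted p = 2.48e-06), and PA and vehicle did not differ by the test (-0.24 ± 0.19 (SE)). CCL2 showed the same pattern at 91.4 and 101, 30.3 and 28.2 and 34.5 and 37.3 CPM. TNFAIP3, the A20 gene (-1.71 ± 0.19 (SE)), and BIRC3, an inhibitor of apoptosis (-2.42 ± 0.44 (SE), -1.49 corrected), fell further with PA than with vehicle. With the correction no NF-kB gene was held, 5 were partly held and 6 moved alike.

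**Figure D4:**
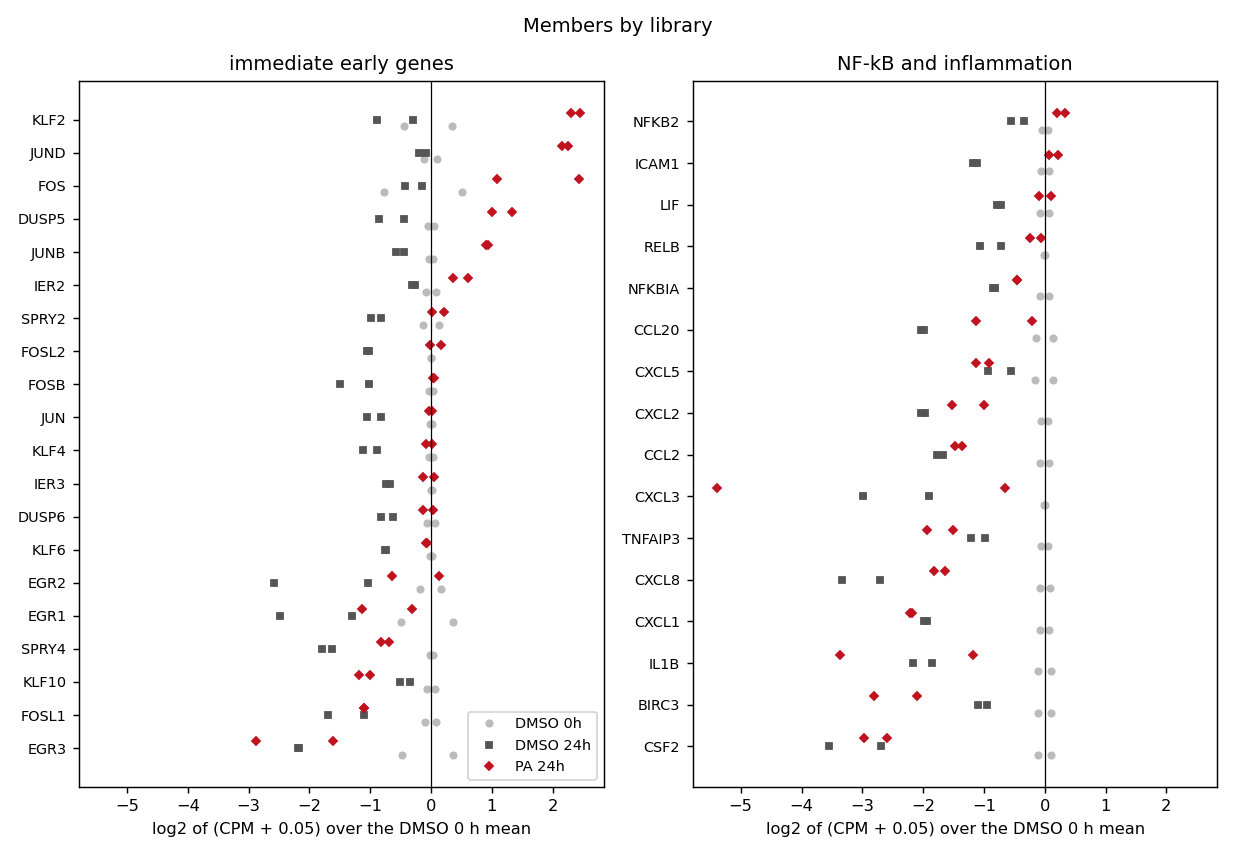
Per-library log2 ratio of CPM (plus 0.05) to the DMSO 0 h mean for immediate early genes and NF-kB genes, with DMSO 0 h, DMSO 24 h and PA 24 h libraries as separate points. The JUN, KLF4 and ICAM1 points of PA lie near 0 while their vehicle points lie below it, and the CXCL1 and CCL2 points of both 24 h groups stay well below 0.

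The other partly held genes were led by ANKRD1, a YAP and stretch-responsive gene, at 28.0 and 29.3 CPM at 0 h, 5.13 and 7.22 in vehicle and 16.1 and 12.2 with PA. Its PA pair lay between the other pairs, with changes of -1.02 ± 0.21 (SE, adjusted p = 0.0011) since the start and 1.2 ± 0.22 (SE) against vehicle. CX3CL1, a membrane-bound chemokine gene, read 16.7 and 19.7, 2.34 and 3.19 and 5.01 and 7.08 CPM, and CYP1A1, the cytochrome induced by the aryl hydrocarbon receptor, read 4.66 and 4.02, 0.830 and 0.671 and 1.80 and 1.29 CPM. SPRY4 was partly held at 112 and 115, 32.8 and 36.7 and 64.1 and 70.1 CPM. ANKRD1, CX3CL1, SPRY4 and CXCL8 were in the class in 6 of 6 fits that left out a library. AREG, an EGF receptor ligand gene, fell by 0.37 ± 0.15 (SE) since the start, a call lost in 5 of these 6 fits (-0.25 to -0.38, adjusted p of 0.0569 to 0.275), all but the one without PA 24 h replicate 1. PLAU, the urokinase gene (-0.57 ± 0.16 (SE), -0.88 corrected), lost its call without DMSO 0 h replicate 1 (-0.52, adjusted p = 0.0566) or PA 24 h replicate 1 (-0.36, adjusted p = 0.114). GADD45A (-0.55 ± 0.16 (SE)) lost it without DMSO 0 h replicate 1 (-0.53, adjusted p = 0.0642) or PA 24 h replicate 2 (-0.49, adjusted p = 0.0791).

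In 127 genes a change since the start was seen in both arms, with 105 lower and 22 higher. CTGF, a YAP and TGF-beta target, read 118 and 117 CPM at 0 h, 28.5 and 35.7 in vehicle and 36.3 and 38.0 with PA. FOXC2 (-1.72 ± 0.17 (SE)) and the zinc finger gene ZNF469 (-1.93 ± 0.31 (SE)) fell in the same way, with vehicle changes of -1.43 ± 0.17 (SE) and -1.96 ± 0.31 (SE), and so did the colony-stimulating factor gene CSF1 (-1.44 ± 0.13 (SE)). The transcription factor gene ETS1 (-1.41 ± 0.15 (SE), -0.86 corrected) and the tight junction gene CLDN1 (-1.13 ± 0.16 (SE), -0.62 corrected) were further members. Among the 22 rises were FAM13A (6.66 and 6.20, 16.2 and 12.4 and 19.7 and 22.3 CPM), RNF43, a negative regulator of Wnt receptors (2.54 and 2.01, 5.47 and 5.24 and 6.06 and 6.24 CPM), DIXDC1 (1.28 ± 0.24 (SE)) and PROCA1 (1.27 ± 0.26 (SE), 0.66 corrected).

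A set of genes stood high against vehicle and could not be placed against the start. LCN2, the lipocalin that binds iron siderophores, read 3.94 and 4.53 CPM at 0 h, 0.246 and 0.351 in vehicle and 5.04 and 5.75 with PA. Its difference from vehicle was 4.16 ± 0.39 (SE), and almost all of it was the vehicle fall of -3.82 ± 0.40 (SE), since the change since the start was 0.35 ± 0.29 (SE, adjusted p = 0.333) with an interval of -0.28 to 0.97. FTH1, the ferritin heavy chain gene with many processed copies, read 179 and 229.5, 70.1 and 71.2 and 272 and 284 CPM, an interval of 0.026 to 0.86 since the start. NR1D1, the REV-ERB alpha clock gene, read 6.81 and 6.80, 2.92 and 3.29 and 6.38 and 9.59 CPM, and TIMP1, a metalloprotease inhibitor gene, 82.0 and 104, 49.1 and 54.8 and 132 and 139 CPM. DESeq2 called FTH1 (0.48, adjusted p = 0.0349) and TIMP1 (0.58, adjusted p = 0.0351) as higher than at the start. In the count fit no change of these genes since the start passed the adjusted threshold, and PA was not placed within 1.5-fold of the start either. The FTH1 interval nevertheless lay wholly above the start. Both PA libraries were above both 0 h libraries in LCN2, FTH1 and TIMP1, but not in NR1D1.

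Most TGF-beta and YAP targets were below the start with PA. Of 17 tested 12 were lower and 1 higher (median -0.992), and vehicle lowered 7 (median -0.347). Against 24 h vehicle 8 were lower and 4 higher with PA. Among all tested genes 27.5% were lower and 27.2% higher in that contrast, and 28.1% and 25.2% against the start. The 1 higher gene, TGFB1 (0.56 ± 0.19 (SE)), lost its call with the correction and without either 0 h library or either PA library. THBS1, the thrombospondin gene, read 127 and 100.4 CPM at 0 h, 41.3 and 46.7 in vehicle and 12.9 and 13.0 with PA. The 3 pairs did not overlap, with changes of -1.37 ± 0.22 (SE) in vehicle and -3.14 ± 0.23 (SE, adjusted p = 7.08e-07) with PA. EDN1, the endothelin gene, fell by 1.35 ± 0.18 (SE), TGFB2 by 1.31 ± 0.20 (SE) (-0.53 corrected) and CYR61 by 0.91 ± 0.17 (SE). The list included genes beyond the start (9), genes of the shared change (3) and ANKRD1 as a partly held gene.

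Epithelial genes rose past the start, without a matching fall of the mesenchymal list. Of 16 epithelial genes 9 were higher and 2 lower (median 1.23, vehicle -0.0454). KRT19, a simple epithelial keratin, read 549 and 598 CPM at 0 h, 782 and 704 in vehicle and 3325 and 3527 with PA (2.58 ± 0.19 (SE, adjusted p = 6.93e-07)). Both PA libraries were above all DMSO libraries. KRT8 rose by 1.93 ± 0.17 (SE) and KRT18 by 1.35 ± 0.17 (SE) (0.79 corrected), while the KRT7 call (1.10 ± 0.17 (SE)) was lost with the correction (0.26, adjusted p = 0.161). ELF3, an epithelial ETS factor, went from 13.6 and 14.3 to 136 and 161 CPM with vehicle at 29.2 and 25.2, and TJP3, a tight junction scaffold gene, from 1.07 and 0.963 to 15.8 and 17.0 CPM with vehicle at 3.35 and 2.30. CLDN4 rose by 1.88 ± 0.25 (SE). EPCAM (0.28), CDH1 (0.75) and OCLN (0.098, 0.85 and called when corrected) were not called, and TJP1 fell by 1.02 ± 0.15 (SE) (-0.59 corrected). Of 12 mesenchymal genes 4 were higher (2 corrected or without DMSO 0 h replicate 1) and 3 lower, against 25.2% and 28.1% of all tested genes. ZEB1, a repressor of epithelial genes, fell by 1.73 ± 0.32 (SE) (-0.93 corrected), SNAI2 by 1.56 ± 0.27 (SE) and the N-cadherin gene CDH2 by 0.86 ± 0.15 (SE) (-0.52 corrected). S100A4 (1.96 ± 0.22 (SE)) and SPARC (1.93 ± 0.35 (SE)) rose, and VIM was not called (0.27).

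Protein quality control, lysosome and ribosome genes moved in part. The counts of each list stand beside 25.2% higher and 28.1% lower among all tested genes. HSP90AA1, the inducible cytosolic HSP90 gene, read 4592 and 4764 CPM at 0 h, 4210.3 and 4825 in vehicle and 1480.2 and 1040.3 with PA, and among 11 heat shock genes 5 were lower (8 corrected) and 2 higher. HSPH1 fell by 1.82 ± 0.27 (SE) (-1.11 corrected) and DNAJA1 by 0.91 ± 0.16 (SE) (-0.57 corrected), whereas HSPB1 rose by 1.37 ± 0.18 (SE) (0.44 corrected). Among 13 endoplasmic reticulum chaperones 4 were higher and 3 lower, shares near those of all tested genes (25.2% and 28.1%), and 2 were higher without either 0 h library. HSP90B1 fell by 1.35 ± 0.22 (SE) and DNAJC3 by 1.31 ± 0.30 (SE) (-0.58 corrected), HERPUD1 rose by 1.19 ± 0.21 (SE), and the CALR rise (0.53 ± 0.14 (SE)) was lost with the correction (0.17, adjusted p = 0.175) and without DMSO 0 h replicate 1 (0.43, adjusted p = 0.065). Of 15 autophagy and lysosome genes 7 were higher and 1 lower (median 0.609, 0.256 corrected), the lower call being lost without any 1 of the 0 h or PA libraries. SQSTM1, the p62 receptor gene, rose by 1.44 ± 0.17 (SE) (0.94 corrected) and the ATG8 family genes GABARAPL1 by 1.38 ± 0.18 (SE) and MAP1LC3B by 1.02 ± 0.13 (SE). Of 20 ribosomal protein genes, most with processed copies that could share reads, 17 were higher and none lower (median 0.987, 0.626 corrected, vehicle -0.000223), led by RPS2 at 1.72 ± 0.19 (SE) (0.85 corrected), RPS14 at 1.43 ± 0.19 (SE), RPLP0 at 1.32 ± 0.17 (SE) (0.80 corrected) and RPL19 at 1.08 ± 0.14 (SE) (0.45 corrected). Of 13 RNAs of the mitochondrial genome 10 were higher (median 0.627) and vehicle lowered 1, but leaving out any 1 of the 0 h or PA libraries left 6 higher. MT-CO2 read 4507 and 4649 CPM at 0 h, 4283 and 4328 in vehicle and 13959.6 and 12576 with PA, MT-ND3 rose by 1.90 ± 0.26 (SE), MT-CO1 by 1.32 ± 0.20 (SE) and MT-ATP6 by 0.96 ± 0.23 (SE).

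The remaining lists were small or divided, and their counts stand beside 25.2% higher and 28.1% lower among all tested genes. Of 13 interferon response genes 6 were higher and 2 lower, with ISG15 (2.13 ± 0.22 (SE), 1.23 corrected), IRF9 (1.86 ± 0.22 (SE)) and IFI6 (1.18 ± 0.25 (SE), 0.66 corrected) rising. Of 14 clock genes 5 were higher and 5 lower, with 3 and 3 corrected and 3 lower without DMSO 0 h replicate 1 or PA 24 h replicate 2. DBP, an output gene of the clock, read 1.65 and 1.67 CPM at 0 h, 4.89 and 4.41 in vehicle and 13.4 and 13.1 with PA, so vehicle had moved nearly as far as PA added on top. BHLHE40 rose by 0.96 ± 0.14 (SE), CRY1 fell by 0.68 ± 0.14 (SE), and the PER1 rise (0.88 ± 0.19 (SE)) was lost with the correction (0.33, adjusted p = 0.0747). Of 9 iron genes 3 were higher (5 corrected) and 1 lower, with NCOA4 (0.82 ± 0.13 (SE)), ACO1 (0.83 ± 0.15 (SE)) and FTL (0.87 ± 0.20 (SE), 0.32 corrected) rising, and the fall of IREB2 (-0.91 ± 0.23 (SE)) lost with the correction (-0.074, adjusted p = 0.571) and without DMSO 0 h replicate 1 (-0.79, adjusted p = 0.0512). Of 16 matrix and urokinase genes 4 were higher and 4 lower, shares near the 25.2% and 28.1% of all tested genes, and 2 were higher without either 0 h library or PA 24 h replicate 2. Among them were COL6A1 (1.5 ± 0.20 (SE), 0.90 corrected), COL5A1 (-1.16 ± 0.15 (SE)), LAMA3 (-0.97 ± 0.22 (SE)) and COL4A1 (-0.81 ± 0.18 (SE)). Of 6 metallothionein and zinc genes MT1G was higher, at under 1 CPM and a call lost without either 0 h library or PA 24 h replicate 1, and MT2A (-0.61 ± 0.19 (SE), -1.49 corrected) and MT1E (-1.03 ± 0.23 (SE)) were lower. The MT2A call was lost without DMSO 0 h replicate 1 (-0.57, adjusted p = 0.0747) or either PA library (-0.61 in both, adjusted p of 0.0572 and 0.0644). Among the leukocyte markers CD14 rose by 2.47 ± 0.41 (SE) to 5.22 and 5.12 CPM.

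At 12 h with PA, the medians of the genes beyond the start lay on the same side of it as at 24 h, although single members did not all do so. Genes beyond the start on the high side had a median log2 change of 0.701 since 0 h after 12 h with PA and 1.055 after 24 h, and those on the low side of -0.739 and -1.139. In 12 h vehicle the same genes had medians of -0.187 and 0.151. The held genes that vehicle lowered had a median of -0.363 in 12 h vehicle and -0.759 at 24 h, while with PA they were at -0.127 and -0.0315. The partly held genes had fallen nearly as far with PA as with vehicle by 12 h, at -0.798 and -0.857, and stood apart at 24 h, at -0.545 and -1.014. The PA libraries of 12 h were less alike than the pair of any other group, with a rank correlation of 0.978. Their GC slopes were 0.578 and 0.124, so each 12 h PA median averages unlike libraries. The class of each gene was chosen from the 24 h libraries and from 0 h, and the 12 h values share the 0 h libraries with that choice, so these medians are a description.

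Members of one class reached their 24 h level by different routes. CENPE was already at 4.23 and 7.57 CPM after 3 h with PA, against 94.7 and 121 in 3 h vehicle, and at 1.58 and 2.64 CPM at 12 h. Its 24 h libraries were thus above those of 12 h, though far below the start. MKI67 fell more slowly, with 1057 and 1099 CPM at 3 h and 419 and 384 CPM at 12 h. SCD stood at 1413 and 1329 CPM after 3 h with PA and at 6519 and 5532 CPM after 12 h. ICAM1, of the held class, did not stay level, since PA had it at 557 and 502 CPM at 3 h and 424 and 332 CPM at 12 h, and its 3 h libraries were above both the start and the 24 h libraries. CDKN1A stood at 89.0 and 79.9 CPM at 3 h and at 63.3 and 47.2 CPM at 12 h, where it overlapped the start, before the 24 h level. CXCL8 fell to 3.92 and 8.18 CPM at 12 h with PA, a pair that spanned 12 h vehicle (7.12 and 7.09 CPM), and was higher with PA at 24 h. The class names therefore describe the 24 h libraries and not the path between.

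Base composition ran through the PA change and not through the vehicle change to the same degree. Over 10 equal bins of the tested genes ordered by GC content, the median log2 change of PA 24 h against 0 h ran from -0.789 in the lowest bin to 0.776 in the highest. Vehicle medians ran from 0.158 to -0.0613. Transcripts of genes called higher were GC-richer and shorter (medians 56.7% and 2362 nt) than those of genes called lower (43.1% and 4235 nt) or of all tested genes (48.9% and 3084 nt). After a correction for GC and length 7964 genes were called, of which 5680 were shared with the 8081 in the same direction and 70 in the opposite one. Vehicle calls went from 373 to 1320, and the class beyond the start had 6035 genes, 4124 of them shared. The same correction left 21 sterol synthesis genes and 22 glycolysis genes higher and 22 mitosis genes lower. The correction also removes any PA effect that tracks base composition, and the cause of the GC slope was not tested.

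**Figure D5:**
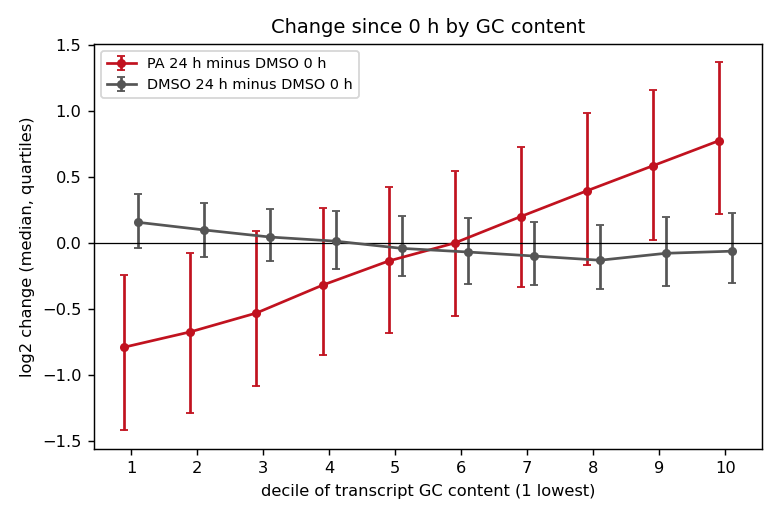
Median log2 change since DMSO 0 h, with the lower and upper quartile as bars, over 10 equal bins of 15071 tested genes by transcript GC content, for PA 24 h and DMSO 24 h. The PA medians climb from -0.789 to 0.776 with GC content, and the DMSO medians stay between -0.13 and 0.158.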

How the data were processed

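RNA-seq of total RNA from PANC-1 cells was read as 151-nt pairs in 14 libraries, 7 groups of 2, grouped by the labels' treatment and time. The submitters' processing notes name TopHat2, edgeR and GRCh38. How reads were counted, with which annotation release and strand setting, is not given in the sources used here. The authors deposited whole-number read counts per gene (28120 genes), and separately RPKM values per gene, which the authors had scaled to length and depth. All columns were mapped to a sample by name (0 unmapped). Among the lines of counts, 8163 carried an extra field, which was skipped.

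Counts of all 14 libraries were fitted together in R 4.3.3 with edgeR 4.0.16: TMM scaling, filterByExpr by group (15181 genes kept), the quasi-likelihood test with 7 residual degrees of freedom, two-sided, Benjamini-Hochberg adjustment over all tested genes, threshold 0.05. The biological coefficient of variation was 15.1%. The 3 contrasts and the gene classes are defined in the report. Intervals are 95%. DESeq2 1.42.0, limma 3.58.1 on log2(RPKM + 1) and log2(RPKM + 0.1), the replicate block, a spline correction for GC and length, other filters, bounds and samples, and each left-out library were alternatives. Another fit, without the RNAs of the mitochondrial genome, was chosen after seeing the data. GC content and length came from the longest basic GENCODE transcript (15071 genes, 99.3%), as did gene coordinates on GRCh38. The pipeline was also run on simulated counts. Their vehicle changes were larger than the median change of the held genes, and all genes had the same spread. That run therefore could not show how well the small classes are recovered in these data.

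Genes were named by rule among those with a mean of at least 2 CPM and a plain gene symbol: the 8 largest rises and falls since the start with PA libraries beyond both 0 h libraries, the 6 strongest each way beyond the start and held at the start, 4 each way for the partly held and shared classes, up to 4 called members of each list with the smallest p, and 9 genes always given (CDKN1A, MKI67, HMOX1, CXCL8, GAPDH, CENPE, ALDOC, SCD and CDKN2A). Other genes named in the report were chosen after their values were seen. The comparison, the lists and the classes were chosen with earlier results of these data known. Lists are described by counts and medians, with no set test. Promoter windows were matched by symbol, and lists with under 80% of members matched were not read for motifs. Some members counted in the lists are not reported here by name.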

Additional observations from a re-analysis of the deposited data

How the results depend on the processing

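The count of genes called against the start and the class beyond the start were within 1.5 times their values under every alternative except a minimum change of 2-fold, which gave 4234 and 3191 genes, and leaving out 1 library gave 5778 to 7734 and 4855 to 5982. The held class had 57 genes, and 110 with DESeq2, 195 with the GC and length correction, 183 with a fit of the 6 libraries only, 6 at a 2-fold minimum, 89 with a bound of 2-fold, 7 with a narrower bound, and 4 to 33 without 1 library. The partly held class had 19 genes, and 11 without a filter (11 also on unfiltered log2(RPKM + 1)), 37 with the correction, 29 in the 6 libraries, 4 at 2-fold and 5 to 14 without 1 library. The shared change had 127 genes, and 243 with DESeq2, 196 without a filter, 455 with the correction, 257 in the 6 libraries, 53 at 2-fold and 10 to 135 without 1 library. Same-numbered libraries did not deviate together: 2 of 21 pairs of groups had a correlation over 0.1 (range -0.218 to 0.244), so the numbers were not taken to pair libraries. With the replicate block 7851 genes were called and the classes had 6457, 31, 16 and 97 genes, and with the block and the correction together 7847, 5904, 176, 34 and 433. Signs turned with the correction, without and with the replicate block, for ATF4 (-0.1323 and -0.1309), BCL2L1 (-0.3368 and -0.3379), CDC42EP1 (-0.8232 and -0.8171), ICAM1 (-0.2406 and -0.2403), LIF (-0.2986 and -0.2984), PLAUR (-0.4913 and -0.4924), TYMSOS (-0.4503 and -0.4505), CDT1 (-0.4597 and -0.4596), E2F1 (-0.5466 and -0.5437) and ACSL3 (0.8082 and 0.8074). The cause was not tested. Leaving out mitochondrial RNAs gave 8059 called genes and classes of 6655, 56, 20 and 129. Rises made up 32.2% of calls on log2(RPKM + 0.1) and 34.2% with no filter on it, and log2(RPKM + 1) gave smaller changes for genes of few RPKM by its construction. With 2 libraries a group, the vehicle change limits the small classes.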
